A study of Mus musculus with 16 samples.

Results

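The clock output transcription factors are the 7 genes Dbp, Tef, Hlf, Nfil3, Ciart, Bhlhe40 and Bhlhe41, out of 24411 gene symbols with raw counts in RNA sequencing of mouse pancreas. They were found by symbol, and they were chosen from a pattern seen in the expression values of these same mice. Which comparison showed that pattern is not recorded, so every comparison of groups and batches below counts as used in the choice, and the values of the 7 genes are a description with no test. The 16 male mice were on the C57BL6/J strain and 12 weeks old, and each gave 1 library from a piece of pancreas. WT mice (n = 5) and Lep(ob/ob) mice (n = 7), which lack functional leptin and become obese, drank control water for 6 weeks. A further 4 Lep(ob/ob) mice drank a cholecystokinin receptor inhibitor (CCKR-I) for the same 6 weeks, as 0.1 mg/mL proglumide (2 mice) or 0.05 mg/mL lorglumide (2 mice). The mutation acts in every cell that can make leptin and throughout life, and no treated WT mice were analysed here. The labels give 2 batch codes, here called A (3 WT and 4 Lep(ob/ob) mice) and B (all 4 treated mice, 3 Lep(ob/ob) and 2 WT mice). The mice lived in a 12-hour light and dark cycle, and the hour at which each pancreas was collected is not given in the sources used here.

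The circadian clock of a cell is a loop in which CLOCK or NPAS2, paired with BMAL1 (the product of Arntl), drives genes through E-boxes, including those of its own repressors PER and CRY. The 7 genes carry this rhythm onward. DBP, TEF and HLF are basic leucine zipper activators with a region rich in proline and acidic residues (PAR bZIP), and they bind D-box elements, which NFIL3 (E4BP4) binds as a repressor. CIART (CHRONO) represses the CLOCK and BMAL1 complex, and BHLHE40 and BHLHE41 (DEC1 and DEC2) are basic helix-loop-helix repressors that bind E-boxes. In the mouse pancreas both acinar cells and islets hold such a clock. The transcripts of these genes rise and fall over the day, Dbp steeply and Nfil3 in the opposite phase.

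Windows of 300 bases around the start sites (250 before and 50 after) were read from RefSeq on GRCm38.p6 for 6 of the 7 genes, with 2 windows for Tef. They were searched on both strands for the E-box CACGTG, the D-box TTANGTAA and the ROR element TAGGTCA, which is the site of the activating ROR and repressing REV-ERB receptors. None of the matches overlapped another. An E-box match was found in 4 of the 7 windows, against 7.15% of all 32851 windows of this length. The D-box letters stood in none of them, against 2.32% of all windows. The ROR element letters were in the window of Nfil3, against 2.61% of all windows. The windows with a match are shown so that the letters can be set beside the values of Tef, Ciart and Bhlhe41, which were higher in Lep(ob/ob) pancreas, and of Nfil3, which was lower. Capitals mark the match, and each run is read 5′ to 3′ on the strand of its gene. The window of Ciart (chr3:95882179-95882478, minus strand) has E-boxes that begin 116, 58 and 44 bases before the start site. The windows of Tef (chr15:81802423-81802722 and chr15:81811164-81811463, plus strand) have 1 each, at 127 and 138 bases before their start. The window of Bhlhe41 (chr6:145865371-145865670, minus strand) has 1 further upstream. That of Nfil3 (chr13:52980990-52981289, minus strand) has the ROR element, read on the other strand, at 12 bases.
Ciart: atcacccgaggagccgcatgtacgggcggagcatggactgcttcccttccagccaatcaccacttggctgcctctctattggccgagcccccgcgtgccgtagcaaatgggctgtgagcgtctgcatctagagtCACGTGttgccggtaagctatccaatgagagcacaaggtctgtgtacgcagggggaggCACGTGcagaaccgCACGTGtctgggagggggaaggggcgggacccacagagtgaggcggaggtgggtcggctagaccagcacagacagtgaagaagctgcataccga
Tef, first window: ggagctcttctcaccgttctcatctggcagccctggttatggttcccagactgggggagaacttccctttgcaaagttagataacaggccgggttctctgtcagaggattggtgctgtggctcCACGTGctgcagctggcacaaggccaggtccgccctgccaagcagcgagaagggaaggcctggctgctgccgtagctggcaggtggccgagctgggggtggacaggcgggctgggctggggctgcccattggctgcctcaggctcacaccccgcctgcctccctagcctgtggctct
Tef, other window: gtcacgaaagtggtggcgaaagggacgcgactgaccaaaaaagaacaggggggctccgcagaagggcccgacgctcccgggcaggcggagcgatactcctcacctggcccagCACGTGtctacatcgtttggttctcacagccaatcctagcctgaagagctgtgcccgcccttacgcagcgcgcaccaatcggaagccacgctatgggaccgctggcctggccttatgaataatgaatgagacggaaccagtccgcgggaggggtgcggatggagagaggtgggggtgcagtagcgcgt
Bhlhe41: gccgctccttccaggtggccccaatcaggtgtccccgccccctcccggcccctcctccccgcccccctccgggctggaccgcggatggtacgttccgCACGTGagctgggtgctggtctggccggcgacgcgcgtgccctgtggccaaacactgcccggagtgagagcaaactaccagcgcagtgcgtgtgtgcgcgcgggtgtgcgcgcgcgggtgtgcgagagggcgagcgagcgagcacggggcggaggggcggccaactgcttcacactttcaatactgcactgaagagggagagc
Nfil3: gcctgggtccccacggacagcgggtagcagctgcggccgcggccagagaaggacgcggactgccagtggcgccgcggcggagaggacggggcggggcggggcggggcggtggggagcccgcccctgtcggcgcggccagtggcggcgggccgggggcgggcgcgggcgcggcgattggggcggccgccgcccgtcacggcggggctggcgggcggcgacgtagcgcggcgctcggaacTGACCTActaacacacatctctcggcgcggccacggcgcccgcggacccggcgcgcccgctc
The windows of Dbp (chr7:45704997-45705296, plus strand) and Hlf (chr11:90390868-90391167, minus strand) held none of these letters. A match of letters is a description of the sequence and not a binding site.

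All 7 genes passed the filter on low counts, with 856 (Nfil3) to 16254 (Tef) raw reads summed over the 16 mice. Values per mouse are the deposited normalized counts, which are raw counts divided by 1 size factor per mouse. Fold changes are from edgeR's quasi-likelihood model of the raw counts with group and batch, over 13660 genes, and a gene counts as past the threshold at a Benjamini-Hochberg adjusted p under 0.05. Of the 7 genes, 6 were past it as higher and 1, Nfil3, as lower when Lep(ob/ob) mice were set against WT mice. Of all genes tested, 5.93% were past it as higher and 3.14% as lower. Between treated and WT mice, 5 were past it as higher and 1 as lower, where 4.22% and 1.35% of all genes were. Between treated and untreated Lep(ob/ob) mice, 0 of the 7 were past it by edgeR or by DESeq2, and 3 had an unadjusted p under 0.05, as had 14.3% of all genes tested. In that comparison 0.0293% of all genes were past it as higher and 0.0293% as lower. These comparisons share their groups and are not independent of one another. Since the genes were chosen with these values known, nothing is read from the counts beside their background. The median log2 fold change of the 7 genes was 1.39 between Lep(ob/ob) and WT mice, -0.26 between treated and untreated Lep(ob/ob) mice and 1.18 between treated and WT mice, and that of all genes tested lay between -0.02 and -0.01 in each. All treated mice belong to batch B, and in that batch alone the median of the 7 was -0.09 between treated and untreated mice (Dbp -0.09, Tef 0.59, Hlf -0.23, Nfil3 -0.26, Ciart 0.90, Bhlhe40 -0.55 and Bhlhe41 -0.05) and 0.85 between treated and WT mice, beside 0.02 for all genes in each.

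**Figure D1:**
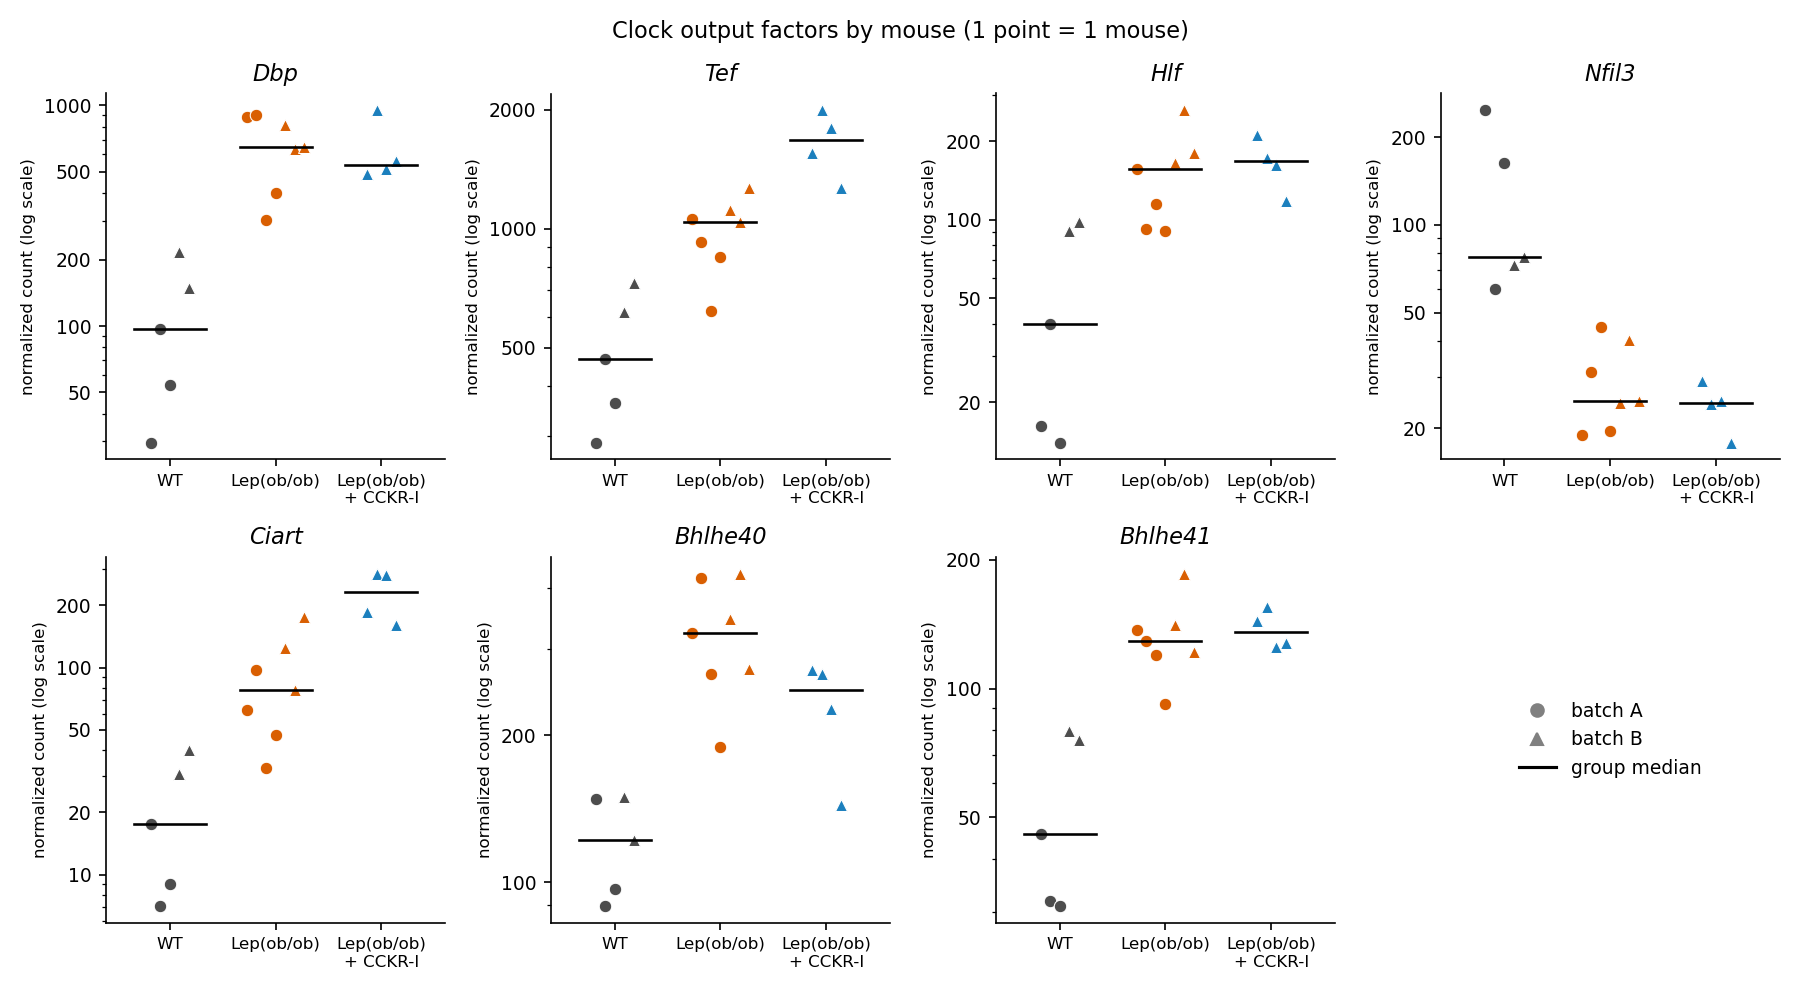
Normalized counts of the 7 genes in each mouse on a log axis, by group, with circles for batch A, triangles for batch B and a line at the group median. Every Lep(ob/ob) mouse lies above every WT mouse for Dbp, Bhlhe40 and Bhlhe41 and below every WT mouse for Nfil3, and WT mice of batch B lie above those of batch A for Dbp, Tef, Hlf, Ciart and Bhlhe41.

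Dbp, the D-box activator with the steepest daily rhythm of the PAR bZIP family in most tissues, was the gene with the largest difference between Lep(ob/ob) and WT mice. Its normalized count was 29.6, 96.5 and 54.0 in the WT mice of batch A and 217 and 149 in those of batch B. It was 303 at the lowest, 649 at the median and 907 at the highest among untreated obese mice, and 486, 952, 515 and 561 among treated ones. Neither obese group overlapped with WT, and the treated mice lay within or just above the range of the untreated ones. Dbp exceeded its WT level 6.52-fold in Lep(ob/ob) mice (log2 fold change 2.704, standard error 0.38). The log2 fold change was 2.24 (standard error 0.44) between treated and WT mice and -0.46 (standard error 0.42) between treated and untreated Lep(ob/ob) mice. The 2 batches differed in size but not in direction: the log2 fold change between Lep(ob/ob) and WT mice was 3.39 (standard error 0.50) in batch A and 1.89 (standard error 0.34) in batch B. Dbp lies on chromosome 7 (45705088 to 45710203, plus strand, 4 exons in its longest transcript), where Sphk2 overlaps it on the other strand. Sphk2 had between 191 and 297 normalized counts in WT mice, and 126 to 296.3 without and 100.2 to 125 with treatment in obese mice. Its part in the counts of Dbp was not tested.

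Tef, the most counted of the 7, changed by less. Its normalized counts were 288, 468 and 364 in the WT mice of batch A and 616 and 731 in those of batch B. Lep(ob/ob) mice had 619 at the lowest, 1043 at the median and 1270 at the highest, and treated mice had 1550, 1994, 1802 and 1269. The Lep(ob/ob) range overlapped with WT only across batches, since the lowest obese mouse belonged to batch A, and the treated mice lay above every WT mouse. The log2 fold change was 1.005 (standard error 0.17) between Lep(ob/ob) and WT mice, with 1.24 (standard error 0.20) in batch A and 0.72 (standard error 0.26) in batch B. It was 1.45 (standard error 0.21) between treated and WT mice and 0.45 (standard error 0.20) between treated and untreated Lep(ob/ob) mice. Within batch B the lowest treated mouse, at 1269.3, and the highest untreated mouse, at 1269.6, had almost the same count. Tef lies on chromosome 15 (81802421 to 81826863, plus strand, 4 exons) and is overlapped by the antisense gene Gm17597, which has no row in the normalized table.

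Hlf, the third PAR bZIP factor, was the least counted of that family in WT pancreas. Its normalized counts were 16.2, 40.0 and 14.0 in the WT mice of batch A and 90.8 and 98.4 in those of batch B. Lep(ob/ob) mice had 90.6 at the lowest, 156 at the median and 263 at the highest, and treated mice had 211, 173, 162 and 118. Lep(ob/ob) mice of batch A overlapped with WT mice of batch B but not with those of their own batch, and treated mice lay above every WT mouse. The log2 fold change between Lep(ob/ob) and WT mice was 1.69 (standard error 0.28), made up of 2.31 (standard error 0.38) in batch A and 1.06 (standard error 0.29) in batch B. It was 1.18 (standard error 0.33) between treated and WT mice, which was past the threshold in 10 of 29 fits, and -0.51 (standard error 0.32) between treated and untreated Lep(ob/ob) mice. Hlf lies on chromosome 11 (90336536 to 90390895, minus strand, 4 exons), with no overlapping gene.

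Nfil3, which represses through the D-boxes that the PAR bZIP factors activate, moved the other way. Its normalized counts were 248, 60.0 and 163 in the WT mice of batch A and 73.0 and 77.9 in those of batch B. Lep(ob/ob) mice had 19.0 at the lowest, 24.8 at the median and 44.5 at the highest, and treated mice had 29.1, 24.2, 24.8 and 17.9. All 11 obese mice lay below all 5 WT mice, and the treated ones lay within or just below the range of the untreated ones. The log2 fold change was -2.02 (standard error 0.32) between Lep(ob/ob) and WT mice, with -2.35 (standard error 0.45) in batch A and -1.37 (standard error 0.33) in batch B. It was -2.04 (standard error 0.44) between treated and WT mice and -0.03 (standard error 0.40) between treated and untreated Lep(ob/ob) mice. Nfil3 is the gene whose window holds the ROR element printed above. It lies on chromosome 13 (52967209 to 52981073, minus strand, 2 exons), with no overlapping gene.

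Ciart, the repressor of CLOCK and BMAL1 whose window holds 3 E-boxes, was low in WT pancreas. Its normalized counts were 17.5, 7.06 and 8.99 in the WT mice of batch A and 30.8 and 40.0 in those of batch B, from 6 to 37 raw reads. Lep(ob/ob) mice had 32.7 at the lowest, 78.4 at the median and 175.7 at the highest, and treated mice had 186, 284, 279 and 161. The lowest Lep(ob/ob) mouse lay between the 2 WT mice of batch B, and the treated mice lay above every WT mouse. Ciart exceeded its WT level 4.32-fold in Lep(ob/ob) mice (log2 fold change 2.11, standard error 0.33), with log2 values of 2.48 (standard error 0.45) in batch A and 1.78 (standard error 0.42) in batch B. It had the largest difference of the 7 genes between treated and WT mice (log2 fold change 2.88, standard error 0.39, or 7.37-fold). The log2 fold change between treated and untreated Lep(ob/ob) mice was 0.77 (standard error 0.34), and in batch B, where all treated mice are, the 2 groups overlapped. Ciart lies on chromosome 3 (95878503 to 95882251, minus strand, 5 exons). Of the 50-base stretches in its transcripts, 11.9% also occur in the annotated gene Gm9176, which has no row in the count tables, so reads from these stretches cannot be assigned with certainty. The antisense gene C920021L13Rik, which overlaps Ciart, had 2.00 to 10.8 normalized counts in WT mice and 0 to 7.89 in untreated obese mice. It had 7.45 to 22.8 in treated mice, where Ciart was also highest, and its part in the counts of Ciart was not tested.

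Bhlhe40 and Bhlhe41, paired repressors of E-box genes, both lie on chromosome 6 (108660629 to 108666925, plus strand, and 145858243 to 145865558, minus strand, 5 exons each). Bhlhe40 had 148, 89.4 and 96.9 normalized counts in the WT mice of batch A and 149 and 122 in those of batch B. It had 189 at the lowest, 324 at the median and 428 at the highest among untreated obese mice, and 272, 267, 226 and 144 in treated mice. Untreated obese mice lay above every WT mouse, while 1 treated mouse lay within the WT range. Lep(ob/ob) and WT mice differed by a log2 fold change of 1.39 (standard error 0.21), and it was alike in batch A (1.48, standard error 0.27) and batch B (1.32, standard error 0.30). It was 0.79 (standard error 0.27) between treated and WT mice, not past the threshold, and -0.60 (standard error 0.25) between treated and untreated Lep(ob/ob) mice. Within batch B all 4 treated mice lay below all 3 untreated Lep(ob/ob) mice, the only one of the 7 genes apart there. This rests on 272 in the highest treated mouse against 274 in the lowest untreated one, and on the log2 CPM scale these 2 mice stood in the other order (3.967 and 3.9663), so that the groups overlapped. Of all genes tested, 4.06% were apart as lower and 4.65% as higher in that comparison.

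Bhlhe41 had 45.8, 31.8 and 31.0 normalized counts in the WT mice of batch A and 79.5 and 75.7 in those of batch B. Lep(ob/ob) mice had 92.2 at the lowest, 129.2 at the median and 186 at the highest, and treated mice had 144, 156, 125 and 127. Both obese groups lay above every WT mouse, and the treated mice lay within the range of the untreated ones. Lep(ob/ob) and WT mice differed by a log2 fold change of 1.37 (standard error 0.18), with 1.78 (standard error 0.21) in batch A and 0.90 (standard error 0.24) in batch B. It was 1.11 (standard error 0.22) between treated and WT mice and -0.26 (standard error 0.21) between treated and untreated Lep(ob/ob) mice. Bhlhe40 is overlapped by the antisense gene 0610040F04Rik, which had at most 5.51 normalized counts in any mouse, and Bhlhe41 by Gm43909, which has no row in the normalized table.

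**Figure D2:**
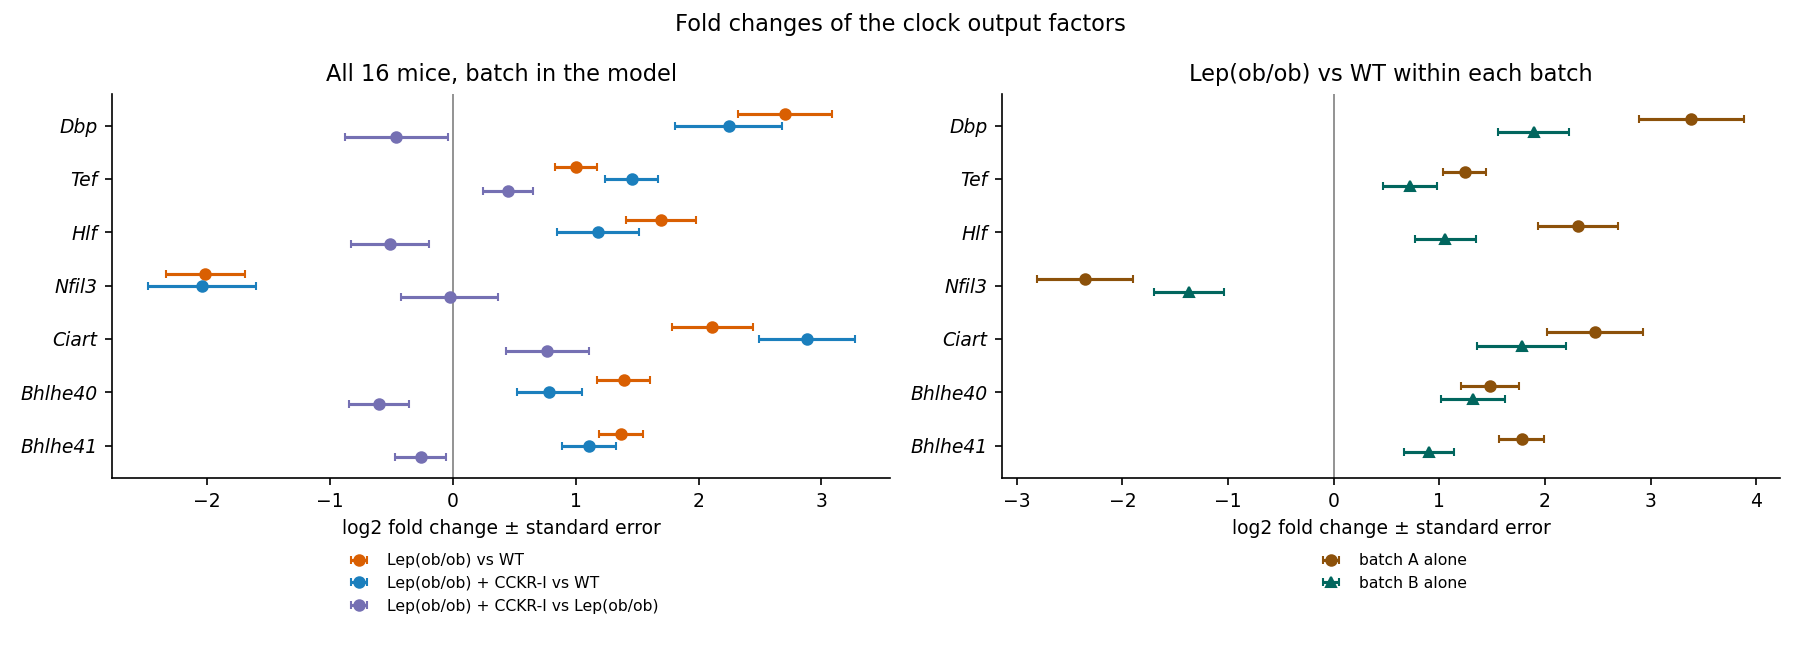
Log2 fold changes of the 7 genes with their standard errors, on the left for the 3 comparisons fitted to all 16 mice with batch in the model and on the right for Lep(ob/ob) against WT within each batch. All 7 keep their direction in both batches, with Nfil3 alone below 0, and the values of batch A are further from 0 than those of batch B for each gene.

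The counts of non-overlapping genes put the same values in another way. Between Lep(ob/ob) and WT mice, 3 of the 7 genes were apart as higher (Dbp, Bhlhe40 and Bhlhe41) and 1 as lower (Nfil3), where 3.06% and 1.12% of all genes tested were. Between treated and WT mice 5 were apart as higher (Dbp, Tef, Hlf, Ciart and Bhlhe41) and 1 as lower (Nfil3), where 6.16% and 5.32% of all genes were.

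The WT mice themselves differed by batch. In 5 of the 7 genes (Dbp, Tef, Hlf, Ciart and Bhlhe41) both WT mice of batch B lay above all 3 of batch A, and in 0 did they lie below. Of all genes tested, 27.8% were apart in WT as higher in batch B and 28% as lower. Among Lep(ob/ob) mice Hlf alone was apart by batch, as higher in batch B, where 11.6% of all genes were higher and 15.3% lower. Libraries of batch A had between 19.2 and 34.5 M counts on genes, those of batch B between 9.87 and 15.9 M. The share of a library taken by its 50 most counted genes ran from 79.2% up to 85.0% in batch A and from 49.3% up to 77.1% in the other batch. The part of these differences in the batch contrast was not tested. In batch A alone, with 3 WT mice, all 7 genes passed the threshold between Lep(ob/ob) and WT mice by edgeR, as did 1145 of 13193 genes tested. In batch B alone, with 2 WT mice, 0 of the 7 genes passed the threshold in either comparison with WT by edgeR. There, all 7 had an unadjusted p under 0.05 in both comparisons, as had 16.9% of all genes tested between Lep(ob/ob) and WT mice and 9.96% between treated and WT mice, and 8 genes in all passed between Lep(ob/ob) and WT mice.

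The levels of different genes can be compared per length of exon. In WT pancreas Tef was highest, at 104.8 ± 38.4 normalized counts per kb of exon (SD, n = 5). Nfil3 (61.3 ± 39.5) and Dbp (59.5 ± 41.1) followed and did not differ beyond their spread, then Bhlhe40 (38.2 ± 8.80). Ciart (10.6 ± 7.23), Hlf (9.19 ± 7.16) and Bhlhe41 (8.42 ± 3.75) were lowest and within each other's spread. In Lep(ob/ob) pancreas the order per kb was Dbp (357 ± 127, SD, n = 7), Tef (209 ± 44.5), Bhlhe40 (101 ± 27.1), Ciart (44.9 ± 25.1), Hlf (26.9 ± 10.8), Bhlhe41 (21.1 ± 4.54) and Nfil3 (14.4 ± 4.93). The WT means pool batches of different level: Nfil3 had a mean of 77.4 per kb in the WT mice of batch A, above Dbp (32.7), and of 37.2 in those of batch B, below Dbp (99.8) and Bhlhe40 (42.8). In treated mice Tef (351 ± 66.7, SD, n = 4) and Dbp (342 ± 118) led and did not differ beyond their spread, and Ciart (116 ± 32.2) came next.

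The balance of D-box activators and repressor was taken as the summed level per kb of Dbp, Tef and Hlf over that of Nfil3. This ratio was 0.656, 5.37 and 1.36 in the WT mice of batch A and 7.36 and 6.61 in those of batch B. It was 14.4 at the lowest, 46.0 at the median and 78.0 at the highest among untreated obese mice, and 43.9, 81.3, 56.5 and 67.5 in treated mice. The groups of obese mice did not overlap with WT, and the activators exceeded the repressor in every mouse but WT 5489. Dbp made up 20.1% to 44.6% of the summed activator level in WT mice, 52.1% to 69.9% in untreated obese mice and 40.5% to 53.3% in treated mice.

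**Figure D3:**
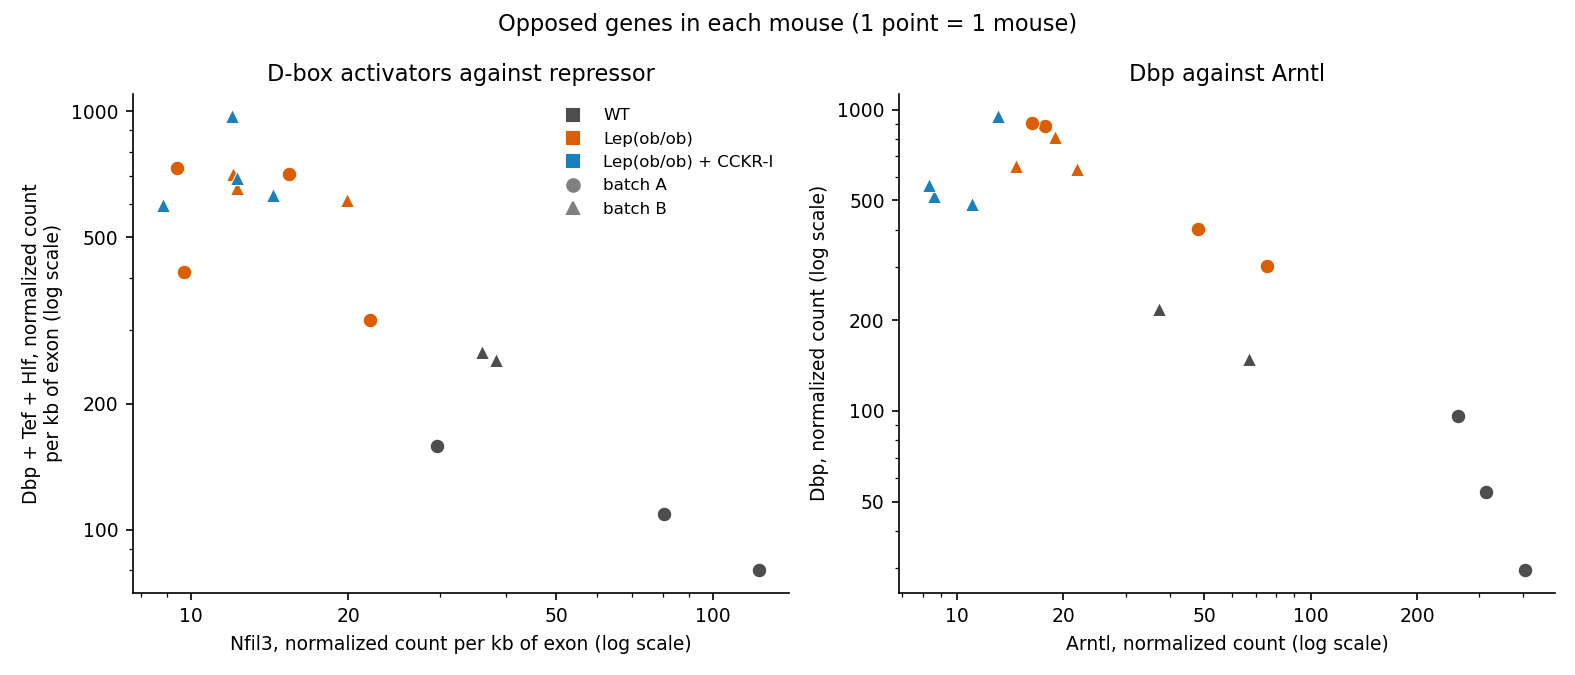
Left, the summed normalized counts per kb of exon of Dbp, Tef and Hlf against those of Nfil3. Right, the normalized counts of Dbp against Arntl. Each point is 1 mouse and all axes are logarithmic. In both plots every obese mouse lies above every WT mouse and to the left of the WT mice of batch A.

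Proglumide and lorglumide are related amino acid derivatives that block cholecystokinin receptors, and they were given at different doses, so no comparison between them was made. Side by side, Dbp had 486 and 952 normalized counts with proglumide and 515 and 561 with lorglumide. Ciart had 186 and 284 with proglumide and 279 and 161 with lorglumide, and Nfil3 had 29.1 and 24.2 with proglumide and 24.8 and 17.9 with lorglumide.

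Some of the 7 genes also varied together within groups. To remove the groups, each mouse's log2 CPM was taken as its deviation from the mean of its group and batch, which leaves 11 degrees of freedom among 16 mice. These deviations share library depth and size factors and are given as a description. Bhlhe40 and Bhlhe41 had the highest Pearson correlation of any pair of the 7 (r = 0.83), and Dbp and Tef followed (r = 0.75). Nfil3 ran against Dbp (r = -0.63) and Tef (r = -0.62) but with Bhlhe40 (r = 0.54) and Bhlhe41 (r = 0.51), whose group differences had the opposite sign to its own. Dbp and Bhlhe41 were nearly unrelated by this measure (r = 0.06) although their group differences had the same sign. Lep(ob/ob) mouse 417 of batch A is singled out after its values were seen. It had the lowest Dbp (303), Tef (619) and Ciart (32.7) and the highest Nfil3 (44.5) and Arntl (75.1) of the untreated obese mice. Without this mouse the log2 fold change of Dbp between Lep(ob/ob) and WT mice was 2.79 and that of Nfil3 was -2.13.

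Genes outside the 7 with the most similar pattern over all 16 mice were found by Pearson correlation of log2 CPM, taking the first 3 of each. This correlation mostly follows the group differences, so the correlation of deviations is given beside it. Tef was most like Per3 (r = 0.97, and 0.84 within groups and batches), Nr1d2 (0.92 and 0.70) and Myef2 (0.92 and 0.41). Ciart was most like Per3 (0.95 and 0.60), Per2 (0.95 and 0.67) and Mllt11 (0.94 and 0.69). Both genes thus had clock repressors at the head of their lists. Nfil3 was most like Arntl (0.86 and 0.43), Col4a4 (0.82 and 0.24) and Plcb4 (0.81 and 0.05). Dbp was most like Enox1 (0.90 and 0.23), Kirrel3 (0.90 and 0.45) and the clock repressor Cry2 (0.89 and 0.43). Hlf was most like Filip1 (0.91 and 0.40), Cpeb1 (0.90 and 0.58) and Enox1 (0.90 and 0.52), none of which is in the clock lists used here. The same holds for Bhlhe40, with Tnfrsf21 (0.86 and 0.42), Spry2 (0.85 and 0.80) and Golm1 (0.85 and 0.50), and for Bhlhe41, with Il20rb (0.92 and 0.70), Gcnt2 (0.90 and 0.51) and Cd200 (0.90 and 0.04).

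The core clock genes that drive these outputs were tested as a list of 18, of which 17 passed the filter on low counts (Rorb did not). This list was chosen with earlier results of these data known, so its adjusted p values are a description and not separate support. Between Lep(ob/ob) and WT mice 4 rose and 4 fell past the edgeR threshold, beside the 5.93% and 3.14% of all genes given above, and the median log2 fold change of the list was 0.13. The genes that fell were on the activating side with 1 exception. Arntl, which encodes BMAL1, had 404, 261 and 313 normalized counts in the WT mice of batch A and 37.3 and 67.0 in those of batch B. It had 14.6 at the lowest, 19.0 at the median and 75.1 at the highest in Lep(ob/ob) mice. The groups overlapped across batches, though not within batch A or within batch B, and Arntl fell by 2.52 on the log2 scale (standard error 0.36, adjusted p = 0.000368). Npas2, the partner that can replace CLOCK, had 56.5, 43.5 and 72.0 normalized counts in the WT mice of batch A and 6.49 and 7.57 in those of batch B. It had 2.71 at the lowest, 7.01 at the median and 20.9 at the highest in Lep(ob/ob) mice, and the groups were apart in batch A and overlapped in batch B, where these mice had 2 to 8 raw reads. Npas2 fell by 1.80 (standard error 0.44, adjusted p = 0.0172). It passed the filter on low counts through its counts in the WT mice of batch A and Lep(ob/ob) mouse 417. It dropped out of the test when any 1 of these mice was left out and in batch B alone. With 21 of 27 alternative fits left to it, its adjusted p is not read as evidence. Clock itself fell by 0.49 (standard error 0.12, adjusted p = 0.0147). The exception was Fbxl21, a ligase subunit that acts on CRY proteins, which fell by 1.19 (standard error 0.30, adjusted p = 0.0193). All of the genes that rose encode repressors: Per1 by 1.78 (standard error 0.34, adjusted p = 0.00321), Per2 by 1.31 (standard error 0.31, adjusted p = 0.0131), Per3 by 1.52 (standard error 0.30, adjusted p = 0.0045) and Cry2 by 0.84 (standard error 0.11, adjusted p = 0.000223). The calls of Per2 and Per3 were lost without the batch term, that of Clock was lost without WT mouse 5489 or 58 and that of Fbxl21 without WT mouse 59. The size of several differed by batch, with a log2 fold change of 1.87 in batch A and 0.70 in batch B for Per2, 2.16 and 0.83 for Per3, -2.93 and -1.54 for Arntl and -0.69 and -1.84 for Fbxl21. For Per1 these values were 1.47 and 2.28, and its log2 fold change was 2.37 without WT mouse 5492. The call of Per1 was lost in 1 of its 27 alternative fits. In batch A alone 6 core genes passed, 3 higher and 3 lower, where 1145 of all genes tested did. In batch B alone 1 core gene passed, where 8 of all genes tested did. An interaction of genotype and batch passed for 0 of 13189 genes by edgeR, and 7 of the 29 listed genes in that fit had an unadjusted p under 0.05, as had 11.9% of all genes.

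The same list was compared between treated and WT mice. Between treated and WT mice 5 rose and 2 fell, beside 4.22% and 1.35% of all genes, with a list median of 0.34. Arntl had 11.015, 13.0, 8.62 and 8.34 normalized counts in the treated mice and fell by 2.90 (standard error 0.54, adjusted p = 0.00335). Npas2 had 1 read or 0 reads in each treated mouse, where 3 reads would be 2.36 to 3.58 normalized counts, so no fold change is given. Its difference between treated and WT mice had an adjusted p of 0.00812, which has the same limit from the filter and is not read as evidence. With the proglumide mice alone 0 core genes passed as lower, so the calls of Arntl and Npas2 both ended. With the lorglumide mice alone 1 core gene passed as lower. Per1 rose by 1.98 (adjusted p = 0.00952), Per2 by 2.06 (adjusted p = 0.00288), Per3 by 2.02 (adjusted p = 0.00239) and Cry2 by 1.10 (adjusted p = 0.000203) on the log2 scale. The call of Per1 was lost without WT mouse 58. Csnk1e, a kinase of PER proteins, rose by 0.54 (adjusted p = 0.0437), a call kept in 11 of its 28 alternative fits. Between treated and untreated Lep(ob/ob) mice 0 of the 17 core genes passed by edgeR or by DESeq2, and 3 had an unadjusted p under 0.05, beside the 14.3% of all genes given above.

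**Figure D4:**
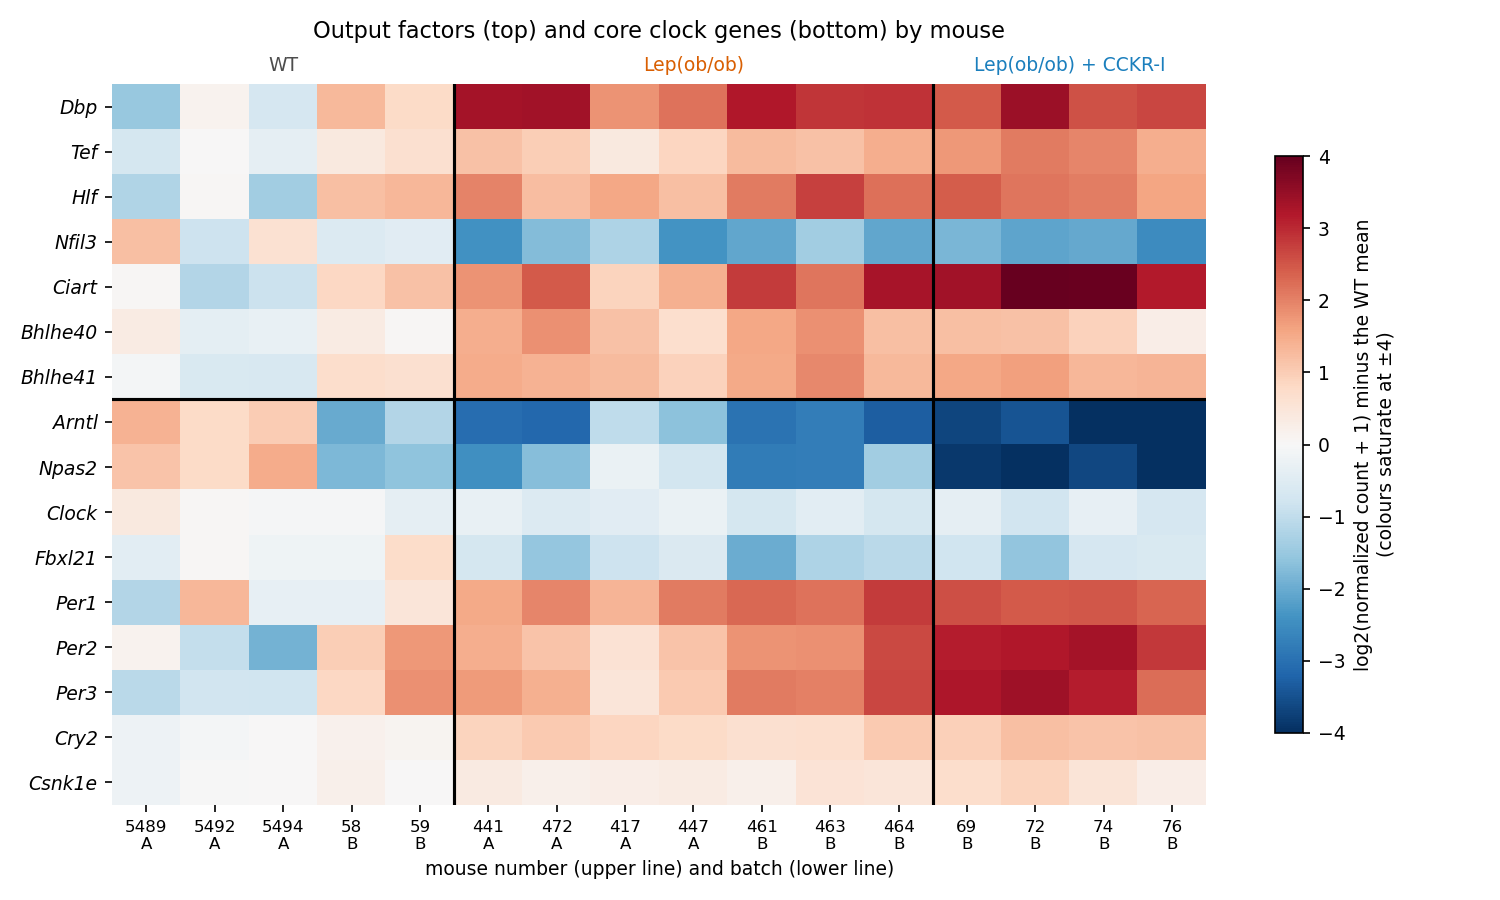
Log2 of the normalized count plus 1, minus the mean of the 5 WT mice, for the 7 output factors (top) and the core clock genes past the threshold in a comparison (bottom), in each of the 16 mice. Red is above and blue below the WT mean, and colours saturate at 4 log2 units. Arntl, Npas2 and Nfil3 are blue and Dbp, Ciart and the Per genes red in most obese mice, with the WT mice of batch B shaded the same way for Dbp, Ciart, Per2, Per3, Nfil3, Arntl and Npas2.

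Dbp and Arntl were also set against each other in the same mouse. The log2 CPM of Dbp minus that of Arntl was -3.68, -1.42 and -2.49 in the WT mice of batch A and 2.48 and 1.13 in those of batch B. It was 1.98 at the lowest, 5.28 at the median and 5.63 at the highest among untreated obese mice, and 5.23, 5.99, 5.61 and 5.77 in treated mice. Lep(ob/ob) mouse 417 lay between the 2 WT mice of batch B, and every other obese mouse lay above all 5 WT mice. The difference is between 2 genes in 1 library and is not corrected for their lengths, so only its order over mice is read.

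Genes known as targets of PAR bZIP factors or as outputs of the clock in several tissues were tested as a list of 12, all of which passed the filter. This list too was chosen with earlier results of these data known, and its adjusted p values are a description. Between Lep(ob/ob) and WT mice 6 rose and 1 fell, beside 5.93% and 3.14% of all genes, with a list median of 0.62 against -0.02 for all genes. Usp2, a ubiquitin protease with a strong daily rhythm, rose by 1.68 on the log2 scale (standard error 0.27, adjusted p = 0.000943). Its normalized counts lay between 89.7 and 172 in WT mice and between 178 and 712 in untreated obese mice, which do not overlap. Por, the electron donor of cytochrome P450 enzymes and a PAR bZIP target in liver, rose by 1.202 (standard error 0.26, adjusted p = 0.00818). Smaller rises were found for Coq10b (0.86, adjusted p = 0.0182), Tspan4 (0.75, adjusted p = 0.00952), Tsc22d3 (0.67, adjusted p = 0.0492) and the cell cycle kinase Wee1 (0.49, adjusted p = 0.0272). Ppara, the receptor that governs fatty acid oxidation, fell by 0.72 (standard error 0.14, adjusted p = 0.00344). The call of Coq10b was lost without WT mouse 5494 and that of Wee1 without any of WT mice 5489, 5492, 58 and 59 or Lep(ob/ob) mouse 441. That of Tsc22d3 was lost in 16 of 27 alternative fits, with log2 values of 0.31 in batch A and 1.30 in batch B. For Por these values were 0.85 and 1.83. Between treated and WT mice 1 rose and 1 fell, beside 4.22% and 1.35% of all genes: Usp2 rose by 1.62 (standard error 0.34, adjusted p = 0.00797) and Ppara fell by 0.65 (standard error 0.18, adjusted p = 0.0435), a call lost in 18 of its 28 alternative fits. Between treated and untreated Lep(ob/ob) mice 0 of the 12 passed by edgeR, with 2 at an unadjusted p under 0.05 (14.3% of all genes were), and 1 passed by DESeq2 (Lonrf3, with a log2 fold change of 1.01 by edgeR, standard error 0.24, adjusted p = 0.214).

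Markers of pancreatic cell types were checked beside these genes. In bulk tissue, fewer cells of a type and less RNA per cell cannot be told apart. All 7 acinar markers were present, and their summed normalized counts lay between 3383000 and 13120000 in WT mice, between 3045000 and 11680000 in untreated obese mice and between 1657000 and 4850000 in treated mice. Of the acinar markers 0 rose and 1 fell between Lep(ob/ob) and WT mice, and 0 passed in either comparison with treated mice. Over the 16 mice, the mean log2 acinar marker level correlated with the 7 genes at r from -0.744 (Hlf) to 0.395 (Nfil3). For the endothelial markers r ran from -0.745 (Ciart) to 0.585 (Nfil3), and 0 of these markers passed between Lep(ob/ob) and WT mice. Lep(ob/ob) mouse 463 had the highest mean log2 levels of macrophage (5.27) and adipocyte (6.71) markers. The part of these cell types in the results above was not tested. Of the 7 islet markers 5 rose between Lep(ob/ob) and WT mice and 5 between treated and WT mice, and none was at 0. The islet markers summed to between 22990 and 33850 normalized counts in WT mice, between 46470 and 233700 in untreated obese mice and between 27350 and 263600 in treated mice. With the mean log2 islet marker level as a covariate, the log2 fold change between Lep(ob/ob) and WT mice was 2.24 for Dbp, 0.89 for Tef, 1.80 for Hlf, -1.42 for Nfil3, 1.76 for Ciart, 1.67 for Bhlhe40 and 1.35 for Bhlhe41, all past the threshold. That level ran from 6.23 to 6.77 in WT mice and from 6.75 to 9.12 in untreated obese mice. It nearly follows genotype, so this fit cannot tell islet content and genotype apart. That covariate ended 5 calls on the lists between Lep(ob/ob) and WT mice, where the log2 fold change went from -1.80 to -1.04 for Npas2, from -0.49 to -0.35 for Clock, from 1.31 to 1.07 for Per2, from 0.86 to 0.57 for Coq10b and from 0.49 to 0.41 for Wee1. Between treated and WT mice it ended those of Npas2, of Nfil3 (from -2.04 to -1.38), of Arntl (from -2.90 to -1.98), of Usp2 (from 1.62 to 1.33) and of Ppara (from -0.65 to -0.72). It also added calls on the same lists, those of Alas1, Cdkn1a, Csnk1e and Pdxk in the first comparison and those of Bhlhe40, Alas1, Pdxk, Por, Tsc22d3 and Tspan4 in the other. Over all genes the calls rose from 1239 to 3917 and from 761 to 1456. The 6 adipocyte markers had summed levels from 1062 up to 3383 in WT mice, from 1012 up to 25930 in untreated obese mice and from 3417 up to 19250 in treated mice, 0 of them higher and 1 lower between Lep(ob/ob) and WT mice, and none at 0. Without the 4 mice of highest adipocyte level, a choice made after the data were seen, the log2 fold change of Dbp was 3.01 and that of Nfil3 was -2.42.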

How the data were processed

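The labels give 16 pancreas libraries, each from 1 mouse, sequenced after polyA selection with strand-marked cDNA. Per the labels and the study's methods, the authors ran Trim Galore 0.6.7 and cutadapt 3.5, then STAR 2.7.9 on mm10. The counter, its strand setting and the annotation are not given in the sources used here. The authors deposited raw counts for 24411 symbols and a normalized signal for 17548, which is the raw count over 1 size factor per mouse, with no batch correction. Some symbols had turned into dates and were kept. WT mice were bred in house per the labels and bought per the methods, and Lep(ob/ob) mice were bought.

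Raw counts, 9.87 to 34.5 M per mouse, were fitted with edgeR 4.0.16 (R 4.3.3, TMM, filterByExpr, quasi-likelihood test, group and batch, all 16 mice, Benjamini-Hochberg over 13660 genes). The methods name DESeq2 without covariates. DESeq2 1.42.0 with batch was an alternative, and both tools were tested on simulated data. Log2 CPM used a prior count of 2. The floor of 3 reads covers counting error only. Standard errors are from the fits over mice and SDs are over mice, so both include differences between mice. Exon lengths, positions and shared stretches come from GENCODE on GRCm38. The members and lists were chosen with earlier results of these data known. Named genes are the members, listed genes past the threshold, Arntl and Npas2, and 3 similar genes per member. Lonrf3 is named as well, since it makes up a count of 1. Other alternatives were no batch term, RLE, the 50 most counted genes left out of TMM, no filter, at least 10 counts in every mouse, each batch or drug alone, marker covariates and leaving out each mouse. The name of 1 gene called in an alternative fit is not reported here.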

Additional observations from a re-analysis of the deposited data

Results flagged for a closer look

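Of 69 combinations of gene and group examined, 1 had a mouse far from the others of its group. Coq10b, on the clock-controlled list, had 359 normalized counts in CCKR-I mouse 76 (lorglumide), against 196 to 213 in the other 3 treated mice. Its gap to the nearest mouse was 0.859 of the group's range on the log2 scale. Chance gives about 1 such group in 20, or 3.45 of 69. None of the 7 output factors had such a mouse.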

How the results depend on the processing

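The log2 fold changes of the 7 genes between Lep(ob/ob) and WT mice kept their direction in all alternatives run, from 1.89 to 3.39 for Dbp and from -2.42 to -1.37 for Nfil3. Between treated and untreated mice the sign turned with no batch term for Hlf (0.15) and Bhlhe41 (0.08), and Nfil3 ran from -0.26 to 0.49. Leaving out each mouse in turn left 7 output factors past the threshold between Lep(ob/ob) and WT mice, 5 to 7 between treated and WT mice and 0 between treated and untreated mice. It left 6 to 9, 5 to 7 and 0 core clock genes and 5 to 7, 1 to 3 and 0 clock-controlled genes in the same order of comparisons. Over all genes, 837 to 1444, 516 to 968 and 0 to 9 passed in these fits, of 13493 to 14006 tested. The genes were chosen with these values known, so nothing is read from the counts staying alike. In batch A alone, with 3 WT mice, 7 output factors, 6 core genes and 5 clock-controlled genes passed between Lep(ob/ob) and WT mice. In batch B alone, with 2 WT mice, 0 output factors, 1 core gene and 0 clock-controlled genes passed between Lep(ob/ob) and WT mice, and the same numbers between treated and WT mice. Over all genes 1145 passed between Lep(ob/ob) and WT mice in batch A alone and 8 in batch B alone. With at least 10 counts in every mouse, which leaves 14 core genes to test, 5 passed between Lep(ob/ob) and WT mice, where 782 of 11216 genes did. With proglumide mice alone 4 core genes passed between treated and WT mice, where 239 of 14468 genes did. The clock-controlled genes passing between treated and WT mice, 2 as reported, were 5 with no batch term, 5 with the adipocyte and 5 with the islet covariate, 1 with no filter, 1 with at least 10 counts, 0 with proglumide alone, 1 with lorglumide alone and 7 without the 4 mice of highest adipocyte level. Over all genes, 761 passed in that comparison as reported. In the same order of fits, 1428, 1715, 1456, 774, 438, 239, 760 and 1316 genes passed. Between treated and untreated mice, 1 clock-controlled gene (Lonrf3) passed with no batch term, with DESeq2 and with either covariate, and 1 core gene passed with the adipocyte covariate. Where no cause is named, the cause was not tested. All genes past the threshold numbered 8 by edgeR between treated and untreated mice, against 104 by DESeq2, 570 with no batch term, 244 with the adipocyte and 21 with the islet covariate, and 0 to 9 with 1 mouse left out. No paired analysis was possible because the groups share no mouse numbers. Among the output factors, depth in the WT group was lowest for Ciart, at 6 to 37 reads per WT mouse. Summed over all mice it was lowest for Nfil3, at 856 raw reads against 1658 for Ciart.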
